A study of Saccharomyces cerevisiae with 14 samples.

Results

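The late lag phase of *Saccharomyces cerevisiae* under 5-hydroxymethylfurfural (HMF) is described here, as the difference between HMF-treated and untreated cultures at 60 and 120 min. It rests on 6 of the 14 arrays of the series, 3 of HMF cultures and 3 of control cultures, chosen by treatment and time alone. All cultures were the wild-type strain NRRL Y-12632, grown aerobically with agitation in synthetic complete medium, and HMF was added to a final 30 mM during growth. The groups were HMF at 60 min with 2 biological replicates, HMF at 120 min with 1 array, control at 60 min with 2 biological replicates, and control at 120 min with 1 array. On every array the test RNA carried Cy3 and RNA of an untreated culture at 0 min carried Cy5, with no dye swap. The values are thus log2 ratios to 0 min. One strain, 1 dose and 1 array per treatment at 120 min limit these cultures as a model of the late phase. A ratio to 0 min gives no level by which the strain or cell type could be checked against markers. Less RNA of a gene per cell and fewer cells expressing it cannot be told apart in culture RNA.

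HMF is a furan aldehyde released when sugars of plant biomass are heated in acid, and it slows yeast growth. Yeast reduces it to an alcohol with NADPH-dependent reductases and alcohol dehydrogenases, and growth resumes after a lag. Transcription factors tied to such challenges are Yap1p of the oxidant response, Pdr1p and Pdr3p of drug efflux, Rpn4p of the proteasome and Hsf1p of the chaperones. Gcn4p in turn drives the genes of amino acid synthesis when amino acids are short.

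Each array was centred on the median of all its genes, and values below are on that centred log2 scale. The medians removed ran from -0.18 to 0.4, and without centring the late difference of all genes had a median of 0.175. The typical SD of the 60 min replicates across genes was 0.191. Across genes, which are not independent replicates, Pearson's r was 0.38 to 0.62 between late arrays of a treatment and 0.35 to 0.52 between treatments. Signal intensities were not used here, so noise from weak spots was not examined. Precision is limited by the few arrays and differed between genes. Of the 6387 open reading frames, 5840 were found in the reference annotation and 5227 carried a gene symbol of their own there.

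Late in the lag phase, genes of aldehyde reduction and drug efflux, the proline breakdown genes *PUT1* and *PUT2* and 8 proteasome genes were higher with HMF. Genes of arginine, histidine and aromatic amino acid synthesis, the transporter genes *ZRT2* and *DUR3* and 30 ribosomal protein genes were lower. By limma, with time as a factor and a limit of 0.05 on the Benjamini-Hochberg adjusted p, 225 of 6387 genes were called. Of these, 109 were higher with HMF, which is 1.71% of all genes, and 116 were lower, which is 1.82%. The median difference was 1.21 (2.31-fold) among the higher genes and -1.05 (2.07-fold) among the lower ones. At least 2-fold differences numbered 89 and 63, and at least 4-fold ones 12 and 12. The 3 HMF arrays lay entirely above the 3 control arrays for 107 of the 109, where 12.9% of all genes did so. They lay entirely below for all 116 lower genes, where 12.7% of all genes did so. The genes were called on these same arrays, which largely fixes their separation. The comparison with all genes is thus no independent support for the calls.

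The count of calls depended on single arrays. Among the 225, 141 had an adjusted p above 0.045, and 6 had one of at most 0.01. Leaving out 1 array left 13 calls (HMF at 60 min, replicate 1), 8 (HMF at 60 min, replicate 2), 3 (control at 60 min, replicate 1), 7 (control at 60 min, replicate 2) and 0 (either array at 120 min), with 2 residual degrees of freedom in each such fit. Without either array at 120 min, time as a factor takes up the array left there. Both such fits are thus the fit of the 60 min arrays alone. On the values as deposited, without centring, 91 genes were called, 57 higher and 34 lower.

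**Figure D1:**
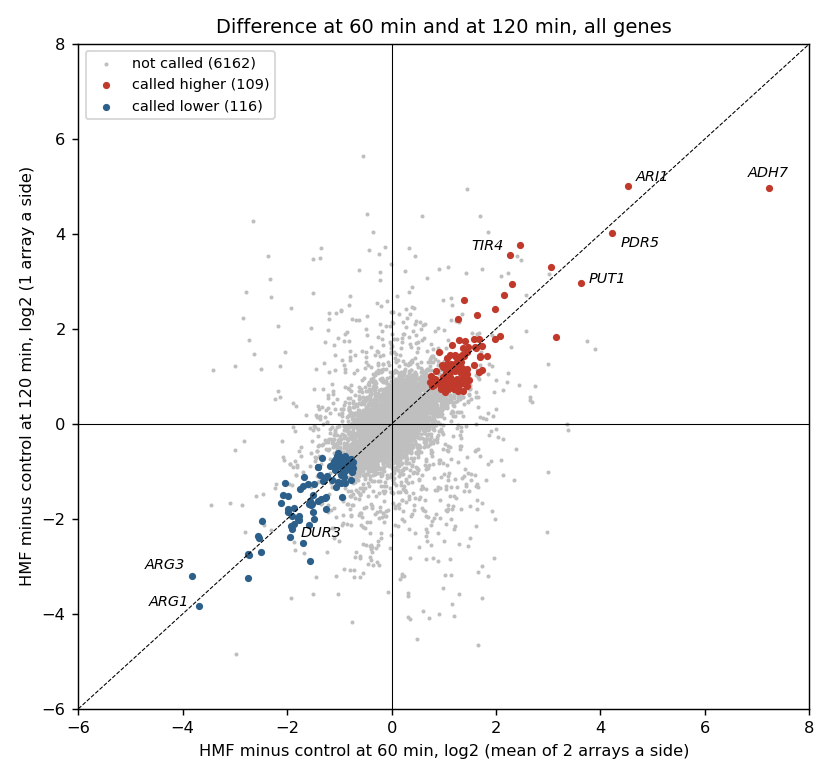
HMF minus control (log2) of every gene at 60 min on the horizontal axis (mean of 2 arrays a side) and at 120 min on the vertical axis (1 array a side), with the 109 genes called higher in red and the 116 called lower in blue. All called genes lie below 0 at both times or above 0 at both times, while uncalled genes spread to both sides along either axis. The genes were called on these same arrays, which largely fixes this contrast.

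Genes of aldehyde and NADPH-dependent reduction held the largest differences. Of 23 measured genes for reductases, alcohol dehydrogenases and aldehyde dehydrogenases, 5 were called higher and 1 lower. That is 21.7% and 4.35%, beside 1.71% and 1.82% of all genes. The lists here and below were chosen with earlier results of these data known. Several hold genes that the study picked on these arrays, so their shares are no independent evidence. The list's median was 0.36, beside 0.01 over all genes. In the order 60 min replicate 1, 60 min replicate 2 and 120 min, used throughout, *ADH7*, a medium-chain NADPH-dependent alcohol dehydrogenase, read 5.76, 6.35 and 5.06 under HMF and -0.19, -2.16 and 0.11 in the control. Its HMF arrays lay far above 0 min, and control replicate 2 at 60 min was apart from the other 2 control arrays. The difference was 6.47 (SE 0.71, adjusted p = 0.03), between 5.69 and 7.23 when any 1 array was left out. *ARI1*, an NADPH-dependent aldehyde reductase of the same reaction, read 4.66, 4.50 and 4.53 under HMF and 0.12, -0.03 and -0.49 in the control. All HMF arrays lay within a narrow band, and the difference was 4.69 (SE 0.17, adjusted p = 0.00248). *GRE2*, which encodes a methylglyoxal reductase, read 3.14, 3.03 and 3.34 against 0.02, 0.06 and 0.04. Its control arrays stayed at their 0 min level, and the difference was 3.13 (SE 0.14, adjusted p = 0.00341).

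*OYE3*, an NADPH dehydrogenase of the old yellow enzyme family, read 1.82, 2.41 and 3.91 under HMF and -0.40, -0.30 and 0.15 in the control, a difference of 2.90 (SE 0.33, adjusted p = 0.0321). Its highest value was on the 120 min HMF array, without overlap between treatments. *YDR541C*, whose product resembles the aldehyde reductases, differed by 1.65 (SE 0.15, adjusted p = 0.02). The related genes did not all move this way. *ADH5*, an alcohol dehydrogenase isozyme, read -1.01, -1.04 and -0.75 under HMF and 0.75, 0.70 and 0.62 in the control and was lower by 1.62 on the log2 scale (SE 0.15, adjusted p = 0.0202). *ALD5*, a mitochondrial aldehyde dehydrogenase, had the next lowest difference of the list, -0.71 (SE 0.14, adjusted p = 0.0633), and was not called. *OYE2*, the other old yellow enzyme, differed by 1.02 (SE 0.20, adjusted p = 0.063) and was not called. Of 6 measured *AAD* genes, for putative aryl-alcohol dehydrogenases, none was called, from *AAD3* at 0.52 (SE 0.18, adjusted p = 0.187) to *AAD15* at -0.01 (SE 0.15, adjusted p = 0.987).

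Membrane transporters and lipid genes of pleiotropic drug resistance (PDR) formed the second group. Of 24 measured, 9 were called higher (37.5%, beside 1.71% of all genes) and none lower. The study picked most of these called genes on the same arrays, so this share is no independent evidence either. The list's median of 0.19 was small, so that part of the list carried the response. *PDR5*, the main multidrug ABC transporter of the plasma membrane, read 4.47, 4.82 and 4.33 under HMF and 0.31, 0.52 and 0.31 in the control. All HMF arrays lay more than 3 log2 units above all control arrays, and the difference was 4.16 (SE 0.17, adjusted p = 0.00282). *RSB1*, which moves sphingoid bases across the membrane, read 2.35, 3.56 and 2.87 against 0.50, 0.80 and -0.07. The difference of 2.51 (SE 0.36, adjusted p = 0.0473) came with a wide spread between the HMF arrays. *SNQ2*, another ABC transporter, read 2.10, 2.66 and 1.80 against 0.27, 0.34 and -0.05, a difference of 2.00 (SE 0.19, adjusted p = 0.0241). *TPO1*, a polyamine exporter, read 1.87, 2.24 and 1.87 against 0.10, 0.04 and 0.09, a difference of 1.92 (SE 0.16, adjusted p = 0.0193).

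*PDR15*, an ABC transporter closely related to *PDR5*, read 1.83, 2.46 and 2.63 under HMF and 0.19, 0.84 and 0.35 in the control, a difference of 1.85 (SE 0.29, adjusted p = 0.0479). The remaining called members were *ICT1* (1.71), a lysophosphatidic acid acyltransferase, *PDR16* (1.60), a phosphatidylinositol transfer protein, the ABC transporter gene *YOR1* (1.18) and the polyamine transporter gene *TPO4* (1.06). At the other end, *TPO2*, which also encodes a polyamine transporter, differed by -0.94 (SE 0.28, adjusted p = 0.15) and *PUG1*, a transporter of porphyrins, by -0.88 (SE 0.37, adjusted p = 0.263), neither being called. Among 15 regulator genes tied to the HMF response, *RPN4* alone was called, and no gene of this list was called with all 14 arrays, after quantile normalization or on the values as deposited. It read 1.35, 1.06 and 1.47 under HMF and 0.01, -0.09 and 0.29 in the control, a difference of 1.22 (SE 0.15, adjusted p = 0.0333). *YRR1*, a zinc cluster regulator of drug resistance genes, had a similar difference with a larger error, 1.26 (SE 0.57, adjusted p = 0.292). The bZIP factor gene *CIN5* lay lowest, at -0.77 (SE 0.22, adjusted p = 0.145).

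Several of the strongest inductions lay outside the reductase and PDR lists. *MCH5*, the plasma membrane riboflavin transporter, read 2.36, 2.99 and 2.62 under HMF and 0.46, 0.57 and -0.09 in the control, a difference of 2.34 (SE 0.23, adjusted p = 0.0245). *TIR4*, a cell wall mannoprotein of anaerobic growth, read 1.64, 2.18 and 2.33 against -0.45, -0.27 and -1.24, a difference of 2.70 (SE 0.33, adjusted p = 0.0336). It was the single called member of 27 cell wall and anaerobic mannoprotein genes, whose median was -0.11. The uncharacterized frames *YLL056C* and *YGR111W* differed by 2.13 (SE 0.16, adjusted p = 0.0179) and 1.79 (SE 0.29, adjusted p = 0.0479), without overlap between treatments. The study places *YLL056C* in its PDR family, which is drawn differently from the list of transporters and lipid genes used here.

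**Figure D2:**
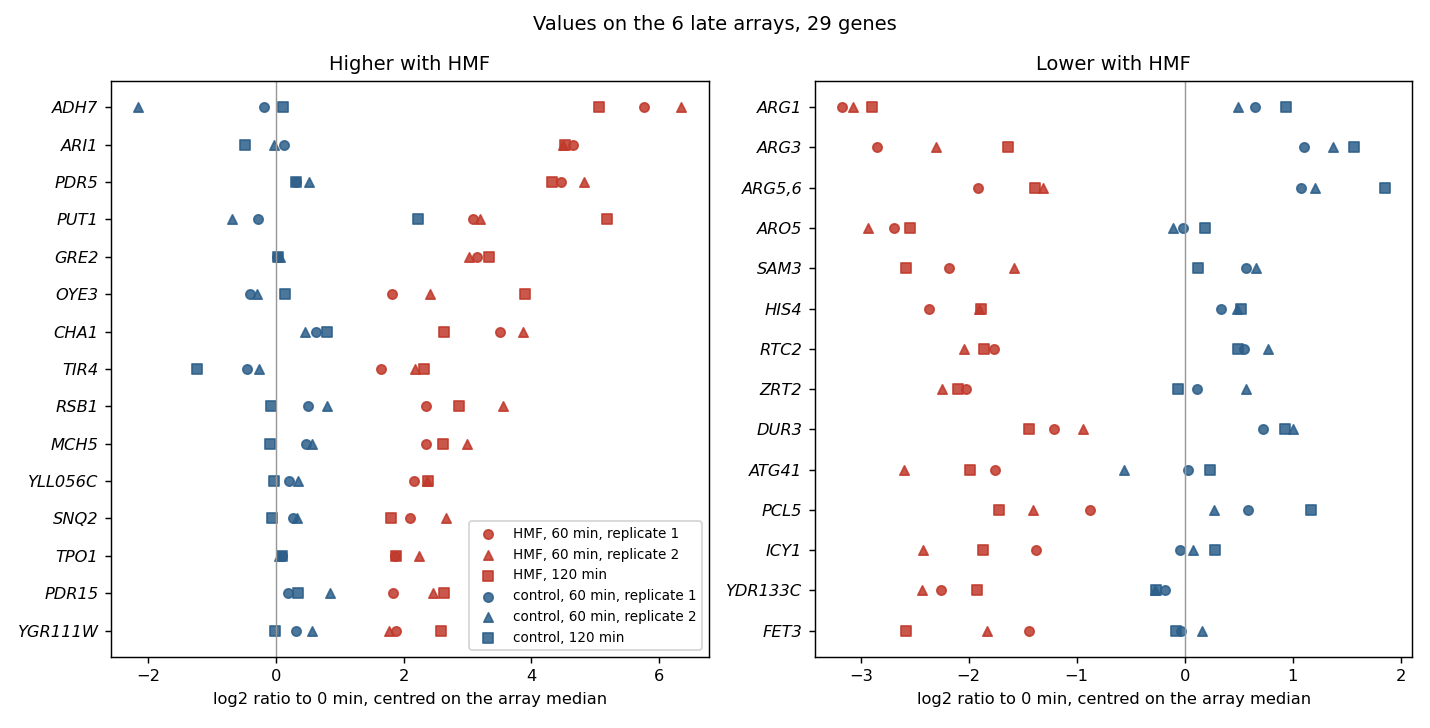
Centred log2 ratios to 0 min on the 6 late arrays for the 15 genes with the largest positive and 14 of the 15 with the largest negative late difference among called genes without overlap. Red marks stand for HMF and blue for control, circles and triangles for the replicates at 60 min and squares for 120 min; in every row the red marks lie to one side of the blue ones.

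The proteasome is the barrel-shaped protease, with its regulatory cap, that degrades ubiquitin-tagged proteins. Its subunit genes lay above the control with HMF. All 33 measured had a positive late difference, with a median of 0.82. In 31 the HMF arrays lay above all control arrays (12.9% of all genes did). Called were 8 of 33 (24.2%, beside 1.71% of all genes), all higher. The study picked most of these called genes on the same arrays, so this share is not independent evidence. The members' median read 0.93, 1.05 and 0.70 on the HMF arrays and 0.02, 0.00 and 0.09 on the control arrays. The subunits thus stood near their 0 min level without HMF and close to 2-fold above it at 60 min with HMF. *PRE6*, a core particle subunit, read 1.24, 1.17 and 0.95 against -0.09, -0.24 and 0.25 and was highest of the list, at 1.15 (SE 0.19, adjusted p = 0.0482). *PUP3*, also of the core, followed at 1.08 (SE 0.19, adjusted p = 0.0528) and did not pass. At the low end stood *RPT5*, an ATPase of the cap, at 0.60 (SE 0.25, adjusted p = 0.254), and *SEM1*, a small lid subunit, at 0.45 (SE 0.19, adjusted p = 0.26).

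The 8 calls for the proteasome depended on the scale. With the values as deposited and with quantile normalization none of the 33 was called, although the median difference was 0.98 and 0.66. With all 14 arrays sharing the estimate of spread 13 were called. Of 29 genes for proteasome assembly, ubiquitin and the segregase Cdc48p, 4 were called higher (13.8%, beside 1.71% of all genes) and none lower. Their median was 0.63. *OTU1*, a deubiquitylase that binds Cdc48p, read 1.61, 1.22 and 0.95 against -0.25, -0.40 and -0.68, a difference of 1.71 (SE 0.17, adjusted p = 0.0241). *ECM29*, which links core and cap, differed by 1.27 (SE 0.20, adjusted p = 0.0479). *DDI1* (1.22), a ubiquitin receptor, and *SHP1* (0.93), a Cdc48p adaptor, were the other calls. The polyubiquitin gene *UBI4* had a difference of -0.36 (SE 0.16, adjusted p = 0.295) and was not called.

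Protein folding genes gave fewer calls. Of 28 chaperone genes of the Hsf1p set, 4 were called higher (14.3%, beside 1.71% of all genes) and none lower. Their median was 0.43. *SGT2*, which receives tail-anchored proteins, read 1.17, 1.29 and 1.34 against 0.06, 0.19 and 0.20, a difference of 1.12 (SE 0.13, adjusted p = 0.033). *CPR6* (1.03), *HCH1* (0.98) and *AHA1* (0.87), all co-chaperones of Hsp90, were the other 3. The small heat shock gene *HSP26* had a difference of 1.08 (SE 0.36, adjusted p = 0.187), and the mitochondrial disaggregase gene *HSP78* one of -1.22 (SE 1.29, adjusted p = 0.651), neither being called. None of these 28 genes was called on the values as deposited or after quantile normalization. Of 19 genes of folding in the endoplasmic reticulum, *ERO1*, the thiol oxidase, at 1.32 (SE 0.17, adjusted p = 0.0404) and *MPD2*, a protein disulfide isomerase, at 1.13 (SE 0.14, adjusted p = 0.0355) were called higher. Neither was called on the values as deposited or after quantile normalization, and *MPD2* was not called with all 14 arrays. The calls were 10.5% of this list, beside 1.71% of all genes. The chaperone gene *KAR2*, at -0.46 (SE 0.18, adjusted p = 0.238), was not called.

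Arginine synthesis had the lowest median of the lists. All 10 measured genes had a negative difference, 8 were called lower (80.0%, where 1.82% of all genes were), and the median was -1.77. *ARG1*, argininosuccinate synthetase, read -3.17, -3.07 and -2.89 under HMF and 0.65, 0.49 and 0.94 in the control. The HMF arrays lay far below 0 min while the control arrays lay above it, a difference of -3.74 (SE 0.14, adjusted p = 0.00248). *ARG3*, ornithine carbamoyltransferase, read -2.85, -2.31 and -1.64 against 1.11, 1.38 and 1.57, a difference of -3.62 (SE 0.23, adjusted p = 0.0105). *ARG5,6*, which encodes the acetylglutamate kinase and reductase, read -1.91, -1.31 and -1.38 against 1.08, 1.21 and 1.86. For both genes the control arrays were also more than 2-fold above 0 min, and the difference for *ARG5,6* was -2.92 (SE 0.22, adjusted p = 0.0179).

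Further called genes of arginine synthesis were *ARG4* (-1.93), argininosuccinate lyase, *ARG7* (-1.61), ornithine acetyltransferase, *ARG8* (-1.58), acetylornithine aminotransferase, and *ORT1* (-1.19), the mitochondrial ornithine carrier. The genes *CPA1*, at -0.99 (SE 0.21, adjusted p = 0.0703), and *ARG2*, acetylglutamate synthase, at -0.38 (SE 0.22, adjusted p = 0.406), did not pass. With all 14 arrays sharing the spread, 8 of the 10 were called as well, and with quantile normalization 6.

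The decrease extended to other amino acids in part. Of 7 genes of histidine synthesis 4 were called lower (57.1%, beside 1.82% of all genes). The median was -1.35, and all 7 had a negative difference. *HIS4*, a multifunctional enzyme of the pathway, read -2.36, -1.90 and -1.89 under HMF and 0.34, 0.49 and 0.52 in the control, a difference of -2.50 (SE 0.18, adjusted p = 0.0137). *HIS1*, which encodes the first enzyme, differed by -1.58 (SE 0.17, adjusted p = 0.0269), and *HIS3* (-1.43) and *HIS5* (-1.35) were also called. The smallest difference was that of *HIS2*, -0.24 (SE 0.16, adjusted p = 0.459). Of 14 genes of aromatic amino acids 4 were called lower (28.6%, beside 1.82% of all genes). *ARO3* and *ARO4* encode the isozymes of the entry step to aromatic amino acids. *ARO3* differed by -1.62 (SE 0.15, adjusted p = 0.0215) and *ARO4* by -1.60 (SE 0.15, adjusted p = 0.0215). *ARO2* (-0.98), chorismate synthase, and *ARO8* (-0.91), an aromatic aminotransferase, were called too. *ARO9*, the catabolic aromatic aminotransferase, stood highest with a large error, 1.96 (SE 1.05, adjusted p = 0.366), and was not called. On the values as deposited 2 of the 7 histidine genes and none of the 14 aromatic genes were called.

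Of 11 branched-chain genes 3 were called lower (27.3%, beside 1.82% of all genes) and 1 higher (9.09%, beside 1.71%). *ILV3*, dihydroxyacid dehydratase, differed by -1.05 (SE 0.13, adjusted p = 0.0352), and *LEU4* (-0.91), the main isopropylmalate synthase, and *ILV5* (-0.82) were the other lower ones. *BAT2*, the cytosolic branched-chain aminotransferase, ran the other way. It read 1.49, 1.51 and 1.90 under HMF and 0.12, -0.06 and 0.28 in the control, a difference of 1.52 (SE 0.14, adjusted p = 0.0201). Of 12 genes of homoserine, threonine and serine synthesis, *HOM2* at -1.48 (SE 0.16, adjusted p = 0.0276), *HOM3* at -1.24 (SE 0.20, adjusted p = 0.0479) and *SER3* (-1.05) were called lower. These calls were 25% of their list, beside 1.82% of all genes. The genes *HOM2* and *HOM3* encode enzymes of the branch from aspartate, and *SER3*, whose locus overlaps the noncoding RNA *SRG1*, one of serine synthesis. On the values as deposited *BAT2* was called and none of the lower branched-chain, homoserine, threonine and serine genes.

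*ARO5* was among the lowest of all genes. It read -2.69, -2.94 and -2.54 under HMF and -0.01, -0.10 and 0.19 in the control, a difference of -2.75 (SE 0.14, adjusted p = 0.00486). *PCL5*, a cyclin that takes part in the turnover of Gcn4p, read -0.87, -1.41 and -1.72 against 0.59, 0.27 and 1.17, a difference of -2.01 (SE 0.34, adjusted p = 0.0494). *RTC2*, a vacuolar membrane protein of cationic amino acid export, read -1.76, -2.04 and -1.86 against 0.55, 0.78 and 0.50, a difference of -2.50 (SE 0.16, adjusted p = 0.0105). These 3 genes joined the amino acid genes at the low end, without overlap between treatments. *ICY1* and the uncharacterized frame *YDR133C* differed by -2.00 (SE 0.30, adjusted p = 0.0473) and -1.97 (SE 0.16, adjusted p = 0.0193).

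Sulfur genes were called in both directions. Of 31 genes of sulfate assimilation and methionine, 2 were called higher (6.45%, beside 1.71% of all genes) and 5 lower (16.1%, beside 1.82%). The median was 0.18. The higher ones were *MET14*, adenylylsulfate kinase, at 1.45 (SE 0.15, adjusted p = 0.0269), and *MET3*, ATP sulfurylase, at 1.32 (SE 0.17, adjusted p = 0.0355), which act in the first steps of sulfate activation. *SAM3*, the S-adenosylmethionine permease, was lowest. It read -2.18, -1.58 and -2.58 under HMF and 0.57, 0.66 and 0.13 in the control, a difference of -2.56 (SE 0.20, adjusted p = 0.0182). *ATG41*, listed for its tie to Met4p and known for a role in autophagy, read -1.76, -2.60 and -1.99 against 0.03, -0.56 and 0.23, a difference of -2.02 (SE 0.29, adjusted p = 0.0473). *MET13* (-1.42), methylenetetrahydrofolate reductase, and *STR3* (-1.28) and *STR2* (-1.16), which link cysteine and homocysteine, were the remaining lower genes.

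Genes for the use of nitrogen sources also split. Of 21 such genes 4 were called higher (19%, beside 1.71% of all genes) and 2 lower (9.52%, beside 1.82%). *PUT1*, the mitochondrial proline oxidase, read 3.08, 3.20 and 5.19 under HMF and -0.28, -0.68 and 2.22 in the control. Both treatments read about 2 log2 units or more above their 60 min arrays at 120 min, and the difference between them was 3.40 (SE 0.21, adjusted p = 0.0105). *CHA1*, a serine and threonine deaminase, read 3.50, 3.87 and 2.63 against 0.62, 0.45 and 0.81, a difference of 2.71 (SE 0.32, adjusted p = 0.033). *PUT2* (1.61), which takes proline to glutamate after *PUT1*, and the alanine aminotransferase gene *ALT1* (1.52) were the other higher genes.

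The lower nitrogen genes both encode transporters. *DUR3*, of urea and polyamine uptake, read -1.21, -0.95 and -1.44 under HMF and 0.73, 1.01 and 0.93 in the control, a difference of -2.09 (SE 0.18, adjusted p = 0.0195). *MEP2*, an ammonium permease, differed by -1.25. The proline permease gene *PUT4* had a difference of -3.60 (SE 1.04, adjusted p = 0.141) and was not called. Of 17 amino acid permease genes, *SAM3* alone was called, and *AGP3*, at -1.29 (SE 0.41, adjusted p = 0.168), was the next lowest.

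Cytosolic ribosomal protein genes lay below the control with HMF. All 137 measured had a negative late difference, with a median of -0.76, and in 118 the HMF arrays lay below all control arrays (12.7% of all genes did). Called were 30 (21.9%, beside 1.82% of all genes). The members' median read -0.82, -0.99 and -0.74 on the HMF arrays and -0.14, -0.26 and 0.02 on the control arrays. *RPL8A* of the large subunit read -1.23, -1.46 and -1.34 against -0.10, -0.54 and -0.12 and had the lowest difference, -1.09 (SE 0.18, adjusted p = 0.0482), and its copy *RPL8B* followed at -1.03 (SE 0.18, adjusted p = 0.055) without passing. At the other end were *RPS28A*, -0.21 (SE 0.18, adjusted p = 0.564), and *RPS30B*, -0.19 (SE 0.25, adjusted p = 0.727). Many of these genes exist in near-identical pairs, between which a 70-mer oligonucleotide may not tell.

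None of the 137 was called on the values as deposited or after quantile normalization, where the median difference was -0.59 and -0.61, and 15 were called with all 14 arrays. Genes for the building of ribosomes gave a single call. Of 130 ribosome biogenesis genes 1 was called lower (0.769%, beside 1.82% of all genes), with a median of -0.24. That gene was *DBP2*, an RNA helicase, at -1.78 (SE 0.21, adjusted p = 0.033), and the nucleolar GTPase gene *NOG1* was next, at -0.66 (SE 0.18, adjusted p = 0.125). Of 52 genes of translation factors and tRNA synthetases, *DPS1*, aspartyl-tRNA synthetase, was called lower at -0.82 (SE 0.13, adjusted p = 0.0479), and the median was -0.31. The call of *DPS1* is 1.92% of its list, near the 1.82% of all genes. No gene was called among 69 mitochondrial ribosomal proteins, with a median of 0.02, or among 27 subunits and factors of RNA polymerases I and III, with a median of -0.01.

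General stress genes gave a single call, in the lower direction. Of 31 genes of the Msn2p and Msn4p set, which respond to many stresses, 4 had a positive late difference, and the median was -0.52. *HOR7*, a small protein of unknown role, was the 1 call, lower at -0.94 (SE 0.14, adjusted p = 0.0473). *TKL2*, a transketolase isozyme, was lowest, at -1.62 (SE 0.36, adjusted p = 0.0799), followed by the membrane protein gene *HSP12*, at -1.32 (SE 0.31, adjusted p = 0.0879), neither passing. The list's median rested on 60 min, where it was -0.91, while at 120 min it was -0.004. Of 31 oxidant defence genes of Yap1p 2 were called higher (6.45%, beside 1.71% of all genes), with a median of -0.03. They were *OYE3* and the thioredoxin gene *TRX2* (0.78). The catalase gene *CTT1* had a difference of -1.11 (SE 0.19, adjusted p = 0.0528).

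Carbon metabolism gave few calls. None of 25 glycolysis and fermentation genes was called (median -0.35), and none of 13 pentose phosphate genes (median -0.64). Of the latter, *TKL2* lay lowest at -1.62 (SE 0.36, adjusted p = 0.0799). *SOL4*, a phosphogluconolactonase-like gene, was next at -1.20 (SE 0.22, adjusted p = 0.058). Of 31 genes of the TCA and glyoxylate cycles and their carriers, 3 were called lower (9.68%, beside 1.82% of all genes). *ODC2*, a mitochondrial oxodicarboxylate carrier, read -2.04, -2.00 and -1.93 under HMF and 0.18, -0.25 and -0.07 in the control, a difference of -1.94 (SE 0.17, adjusted p = 0.0195). *CIT2* (-1.92), the peroxisomal citrate synthase, and *PYC2* (-1.23), a pyruvate carboxylase, were the others. Of 22 hexose transporter genes, *HXT2* was called lower, at -1.86 (SE 0.31, adjusted p = 0.0482), with a gap of more than 1 log2 unit between HMF replicates at 60 min (-1.63, -0.57 and -1.82 with HMF).

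**Figure D3:**
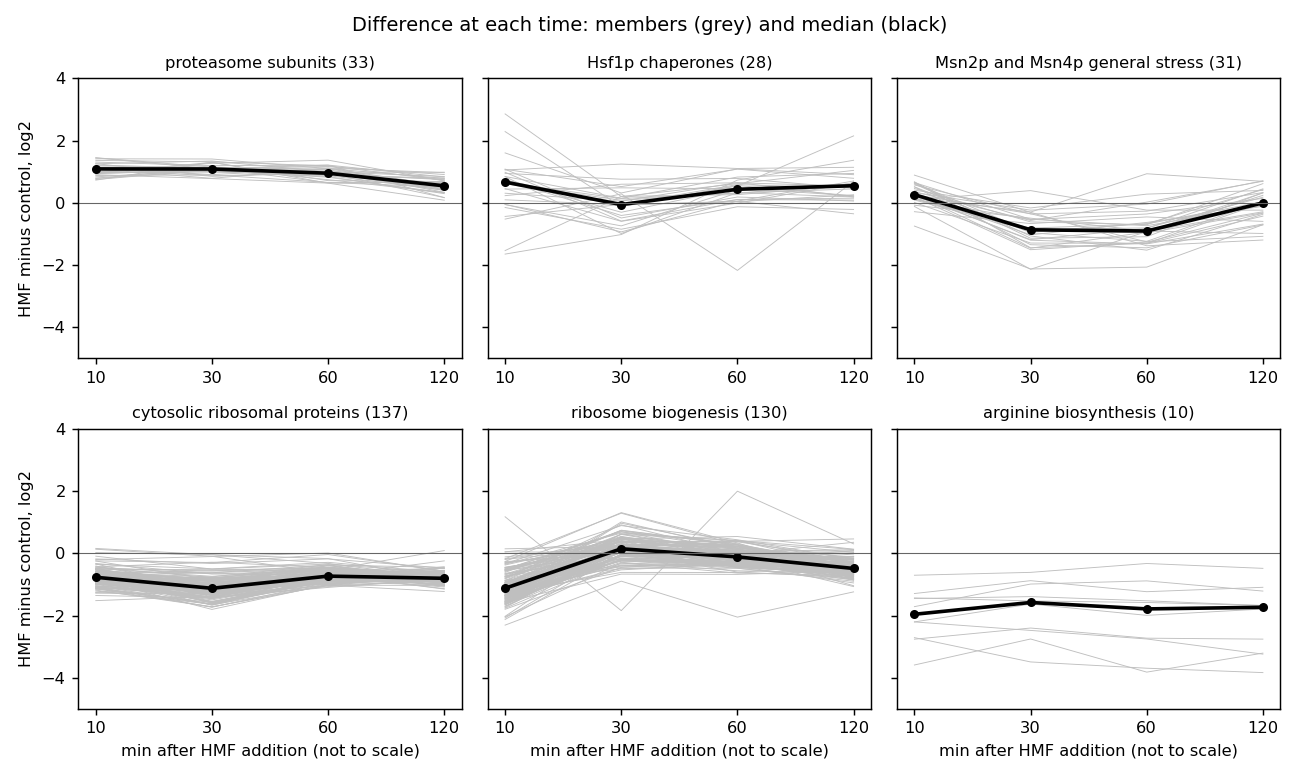
HMF minus control (log2) of each member (grey) and the median (black) of 6 gene lists at 10, 30, 60 and 120 min, with the number of genes in brackets. Proteasome genes stay above 0 and ribosomal protein and arginine genes below it at the median of every time, while the medians of chaperone, general stress and ribosome biogenesis genes cross 0 or approach it.

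A few genes of metal uptake were called lower. *ZRT2*, the low-affinity zinc transporter, read -2.02, -2.25 and -2.10 under HMF and 0.11, 0.57 and -0.06 in the control, a difference of -2.33 (SE 0.20, adjusted p = 0.0195). The zinc regulator gene *ZAP1* was also called lower, at -1.03, -0.91 and -1.43 under HMF and -0.11, -0.06 and -0.20 in the control. *FET3*, the multicopper oxidase of iron uptake, read -1.44, -1.83 and -2.58 against -0.04, 0.16 and -0.08, with its lowest value at 120 min and a difference of -1.97 (SE 0.23, adjusted p = 0.033). It was the 1 call among 24 iron genes, and *FTR1*, the permease that works with Fet3p, had a difference of -1.12 (SE 0.31, adjusted p = 0.13). The other 23 iron genes did not pass, and the list's median was 0.26. Of 19 phosphate genes *PHM7* was called lower, at -1.50 (SE 0.17, adjusted p = 0.0327).

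Open reading frames of Ty retrotransposons, which copy themselves through RNA, were higher with HMF. Of the 4 such frames listed by name, all 4 were called higher, with a median of 1.14. They were *YBL101W-A* (1.29), *YDR210W-B* (1.17), *YDR365W-B* (1.11) and *YDR316W-B* (1.08), which the study itself picked on these arrays, so that their count is not independent evidence. A wider list, drawn up after the values were seen, took all frames of at least 4000 bases whose name ends in A or B. Of these 28, 16 were called higher and none lower, with a median of 1.07. The members' median read 0.90, 1.00 and 1.22 on the HMF arrays and -0.05, -0.32 and 0.35 on the control arrays. *YBL005W-B* read 1.05, 1.16 and 1.42 against -0.22, -0.33 and -0.01 and had the highest called difference, 1.40 (SE 0.13, adjusted p = 0.0215). *YGR109W-B* was lowest, at -0.78 (SE 0.63, adjusted p = 0.548). Copies of a Ty family are near-identical and their frames overlap, so the frames are not independent and an oligonucleotide may read many copies. On the values as deposited 2 of the 28 were called, and after quantile normalization 2.

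Smaller groups held 1 or 2 calls each, where 1.71% of all genes were called higher and 1.82% lower. Counts this small are not read as traits of the lists. The same holds for the single calls among general stress, hexose transporter, iron, phosphate, ribosome biogenesis, translation, amino acid permease, cell wall and regulator genes. Of 21 genes of DNA damage and ribonucleotide reductase, *MSH6*, of mismatch repair, at 1.58 (SE 0.23, adjusted p = 0.0473), and *MAG1* (1.48), a DNA glycosylase, were called higher, and *PHR1*, the photolyase, had a larger difference with a larger error, 1.75 (SE 0.71, adjusted p = 0.249). Of 22 autophagy genes, *ATG8* at 1.13 (SE 0.18, adjusted p = 0.0479) and *ATG31* at 0.86 (SE 0.15, adjusted p = 0.0497) were called higher, the first being the lipid-coupled protein of the autophagosome. Neither was called with all 14 arrays, after quantile normalization or on the values as deposited. Of 24 genes of thiamine, pyridoxine and biotin, *SNO3* at 1.60 (SE 0.20, adjusted p = 0.0351) was called higher and *BIO4*, of biotin synthesis, lower at -1.37 (SE 0.22, adjusted p = 0.0479). The *SNO3* arrays overlapped between treatments, since both treatments read lower at 120 min (2.17, 2.38 and -0.08 under HMF and 0.39, 0.96 and -1.69 in the control). Of 25 cyclin and cell cycle genes, *CLB1*, a mitotic cyclin, was called lower at -0.84 (SE 0.14, adjusted p = 0.0479). The calls of *CLB1*, *DPS1*, *PHM7*, *HXT2* and *TRX2* were likewise lost under all 3 of these settings. So were those of *TPO4*, *DDI1*, *SHP1*, *CPR6*, *AHA1*, *MPD2*, *LEU4* and *ILV5*, and this listing is not complete.

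No call was made in 4 further lists. They were 27 ergosterol genes (median 0.23), 10 histone genes (median -0.51, all negative), 18 purine genes (median -0.11) and 28 mitochondrially encoded frames (median -0.38). The extremes were *ERG27*, a sterol ketoreductase, at 0.90 (SE 0.17, adjusted p = 0.063), *HTA2*, a histone H2A gene, at -1.08 (SE 1.18, adjusted p = 0.664), *MTD1*, of folate metabolism, at 0.68 (SE 0.18, adjusted p = 0.126), and *BI2*, an intron-encoded maturase, at -1.43 (SE 0.33, adjusted p = 0.0888). In all, 51 of the 109 higher genes and 72 of the 116 lower genes belonged to a list. Of the higher genes, 46 had no symbol beyond the frame name, and 9 of the lower.

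**Figure D4:**
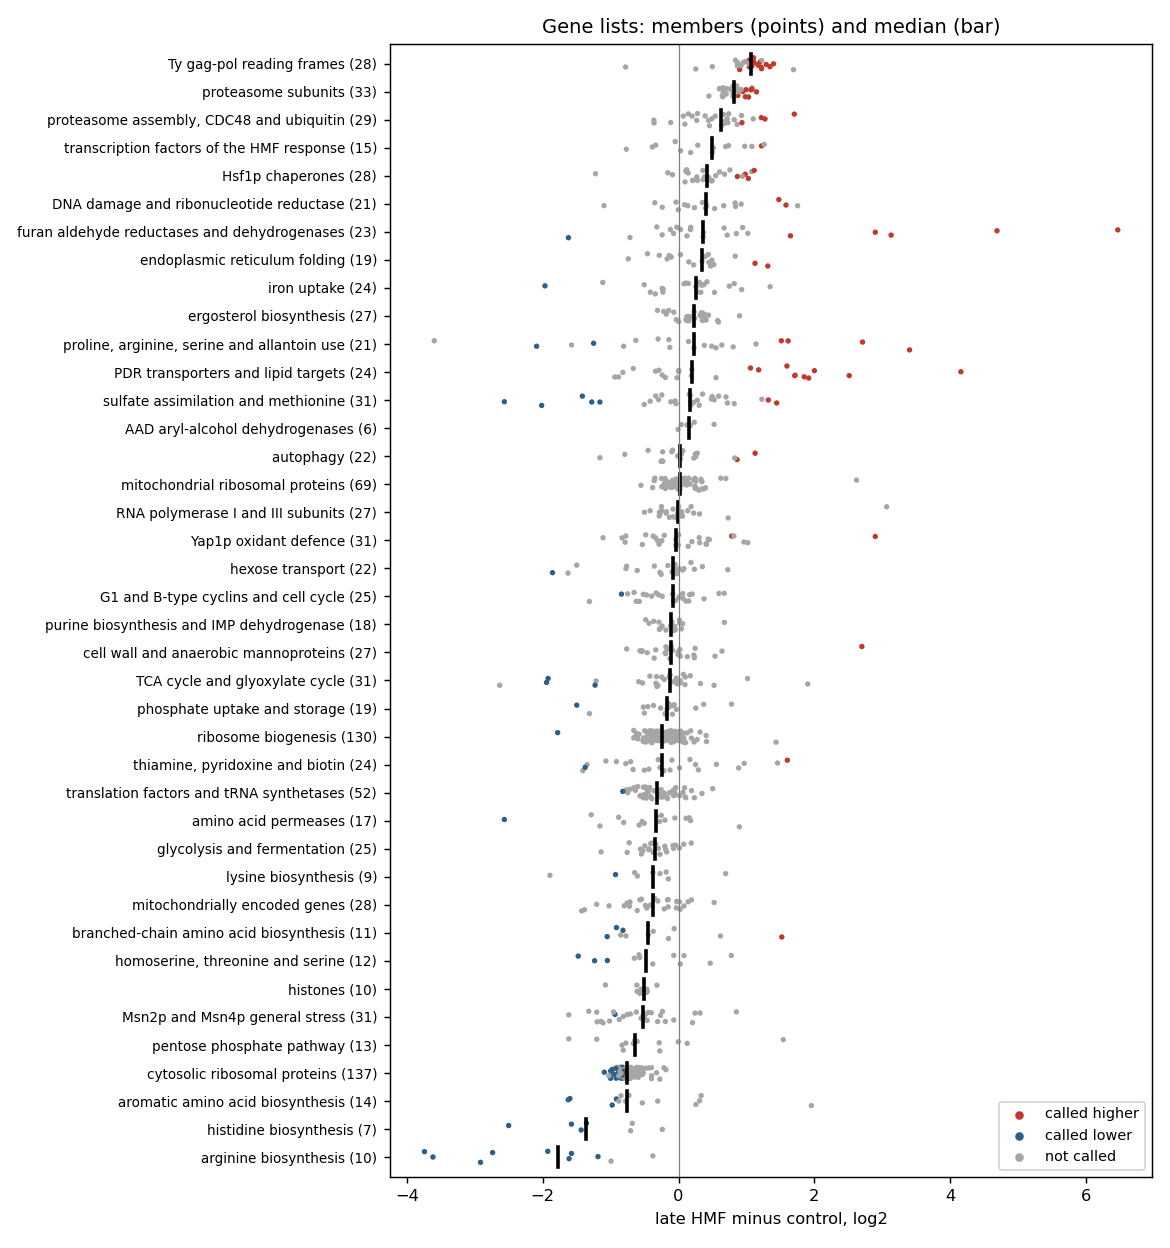
Late HMF minus control (log2) of every measured member of each gene list, with the number of members in brackets, the median as a black bar, members called higher in red and members called lower in blue. Arginine synthesis has the lowest median (-1.77). The Ty gag-pol frames and the proteasome subunits have the highest drawn (1.07 and 0.82), the list of 4 named Ty frames being left out. The reductase and PDR lists have medians of 0.36 and 0.19, with a few members far to the right.

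Set against 0 min, most called genes had moved with HMF and stood near their starting level in the control. Among the 109 higher genes the median HMF level was 1.20 and the median control level 0.04. The HMF mean was at least 2-fold above 0 min in 86 of them, and the control mean at least 2-fold below it in 1. Among the 116 lower genes the medians were -1.04 and 0.07. The HMF mean was at least 2-fold below 0 min in 66 of these, and the control mean at least 2-fold above it in 4. *ARG3* and *ARG5,6* were among the latter, with control means of 1.35 and 1.38. In 22 higher and 48 lower genes neither treatment reached 2-fold, so that the call rests on opposite or small movements.

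**Figure D5:**
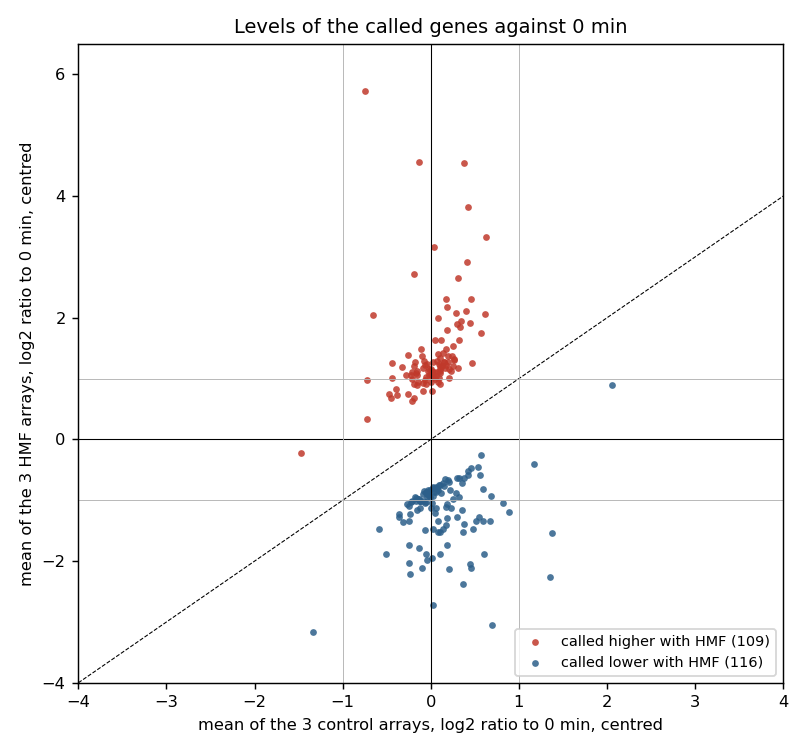
Mean centred log2 ratio to 0 min of the 3 control arrays (horizontal axis) and of the 3 HMF arrays (vertical axis) for the 225 called genes; the dashed line marks equal levels and the grey lines 2-fold changes. Most genes called higher lie at a control mean near 0 (median 0.04) and most called lower likewise (median 0.07), with the spread along the HMF axis.

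The response at 120 min was not shown to differ from that at 60 min for any single gene. With limma on all 14 arrays, 0 of 6387 genes (0%) passed for the difference at 120 min minus that at 60 min, while 138 were at or below 0.05 before adjustment, and no adjusted p was under 0.191. The smallest p values belonged to single outlying arrays at 120 min. *YPR142C*, an uncharacterized frame, read -0.24, -0.52 and 3.40 under HMF and -0.10, -0.18 and -0.17 in the control. *PNT1*, a mitochondrial inner membrane protein, read -0.07, -0.41 and 3.21 against 0.03, -0.25 and -0.52, so that for both genes the HMF array at 120 min stood alone. For *YOR385W* (0.43, 0.24 and -2.95), *TUB2* (0.15, 0.01 and 1.92), which encodes beta-tubulin, *ADY4* (0.27, 0.48 and 2.16) and *YBR219C* (-1.01, -0.55 and 1.06) it was the control array at 120 min. None of these genes passed.

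The late difference was likewise not shown to differ from the early one, at 10 and 30 min, for any single gene. By limma 0 genes (0%) passed, while 247 were at or below 0.05 before adjustment, and no adjusted p was under 0.0923. The lowest belonged to *YPR027C*, an uncharacterized frame with a difference of 2.24, 2.98, -2.49 and -2.01 at 10, 30, 60 and 120 min. *TIR4* had differences of 0.11, 1.03, 2.27 and 3.56 at these times, and *YLL056C* of 0.58, 0.75, 1.99 and 2.41, both with an adjusted p of 0.398. *INA1*, at -1.39 and 0.04 early and 0.99 and 1.20 late, and *CYB2*, lactate dehydrogenase, at 1.20 and -0.16 early and -0.89 and -0.98 late, had an adjusted p of 0.745.

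As groups, the called genes already differed in the same direction early. Of the higher genes 103, and of the lower genes 105, had the late sign at both 10 and 30 min. The median difference of the higher genes was 0.79, 0.98, 1.25 and 1.11 at 10, 30, 60 and 120 min. That of the lower genes was -0.91, -1.26, -1.08 and -1.04. The genes were chosen on the late arrays, which fixes the sign of the late values. How many of all genes had their late sign at both 10 and 30 min was not counted. The counts of 103 and 105 thus have no background to be read against. Ribosome biogenesis genes had medians of -1.12, 0.15, -0.11 and -0.48 at the same times. The chaperone genes of the Hsf1p set had 0.67, -0.06, 0.43 and 0.55, and the proteasome genes 1.09, 1.09, 0.95 and 0.55. These medians are a description, and the change of a list over time was not tested.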

How the data were processed

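RNA of 14 samples was measured on 2-color arrays of 70-mer oligonucleotides, of which the 6 late arrays are described here. The study ran 2 replicate experiments for each condition and sampled them over time, so arrays of different times may come from the same culture. The labels do not say which arrays share a culture, and the fits treat all arrays as independent. The authors subtracted background from the median spot signal, normalized each slide to a spike-in control gene and deposited 1 log2 ratio of test (Cy3) to 0 min RNA (Cy5) for each of 6387 open reading frames and array. How duplicate spots were combined is not given in the sources used here.

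Each array was centred on its median. limma 3.58.1 in R 4.3.3 (lmFit, eBayes) fitted treatment and time to the 6 arrays, with 3 residual and 2.21 prior degrees of freedom. In this additive fit the 60 min difference weighs 2 times that at 120 min. Standard errors are moderated. The 120 against 60 min and late against early contrasts came from 8 group means over all 14 arrays, with 6 residual and 2.53 prior degrees of freedom, in which the single arrays at 120 min are assumed to vary like the other groups. The Benjamini-Hochberg adjustment covered all genes of a contrast. The fits were tested on simulated data. The replicates are labelled biological.

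Genes named are the 15 highest and 15 lowest called genes without overlap, genes from the 2 highest and 2 lowest of each of 40 lists, and the 3 with the smallest p in each direction of the other contrasts. Some of these genes are not reported here. Further called genes were named after their values were seen. The members and lists were chosen with earlier results of these data known, and some lists hold genes that the study picked on these arrays. Symbols came from the R64 annotation of RefSeq. Promoter motifs were not analysed here. Alternatives were deposited and quantile-normalized values, all 14 arrays, 60 min alone, a replicate block, no moderation, other limits and each array left out.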

Additional observations from a re-analysis of the deposited data

How the results depend on the processing

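The count of 225 depended on the settings. Each of the 225 genes kept its sign in every fit, which their choice on the same arrays largely fixes. The count was 91 on the values as deposited (62.6% of them higher, against 48.4% after centring), 54 with quantile normalization, 173 with all 14 arrays, 111 with all 14 arrays and equal weights of 60 and 120 min, 22 without moderation (1187 unadjusted) and 557 at an adjusted p of at most 0.1. It was 0 with the 60 min arrays alone and 0 to 13 without any 1 array. The fits without either array at 120 min are the same fit as the 60 min arrays alone and are no separate alternatives. A replicate block gave 13 calls. The labels number 2 replicates at 60 min with no stated pairing, and their replicate differences correlated at 0.17 between treatments, and with 2 numbers it could not be settled whether the arrays are paired.

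The 120 against 60 min difference gave 0 calls under every alternative run. The late against early difference gave 4 on the values as deposited, 0 to 1 without any 1 array (1 without HMF at 30 min replicate 2, and 1 without HMF at 60 min replicate 1), and 0 otherwise. The cause was not tested. Of 420 values of the 30 leading genes under the alternatives, 203 kept direction and call, 217 kept direction and were not called, and 0 changed sign, which is again largely fixed by their choice. Of 574 list medians, 17 moved by more than the replicate spread, and 0 of those 17 changed sign.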

Other observations

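Members of some gene pairs differed in their late values. The pairs were picked after their values were seen, and the differences between members were not tested. *ALT1*, the main alanine aminotransferase, was called higher at 1.52 (SE 0.17, adjusted p = 0.0303), while its paralog *ALT2* was called lower at -1.49 (SE 0.15, adjusted p = 0.0245). *ALT2* read -1.37, -1.50 and -1.53 under HMF and 0.12, 0.22 and -0.26 in the control. Of the pyruvate carboxylase genes, *PYC2* was called lower at -1.23 (SE 0.13, adjusted p = 0.0269), and *PYC1* had a difference of 1.02 (SE 0.20, adjusted p = 0.063) without passing. The oxodicarboxylate carrier gene *ODC2* was lower at -1.94 (SE 0.17, adjusted p = 0.0195), and *ODC1* had a difference of -0.03 (SE 0.19, adjusted p = 0.949).

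Some lower genes outside the lists act in lactate, carnitine and mitochondrial metabolism. The lactate dehydrogenase genes *CYB2* (-0.92) and *DLD1* (-0.99), the carnitine acetyltransferase gene *YAT2* (-0.91), the acetyl group transferase gene *ACH1* (-1.07), the mitochondrial pyruvate carrier gene *MPC2* (-1.01) and the glycerol 3-phosphate dehydrogenase gene *GUT2* (-0.83) were all called lower. These genes were gathered after their values were seen and carry no test as a group. *TMT1*, trans-aconitate methyltransferase, read -1.42, -1.47 and -1.52 under HMF and 0.39, 0.47 and 0.58 in the control, a difference of -1.95 (SE 0.13, adjusted p = 0.0134).

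Of 5806 pairs of neighbouring genes, 13 had both members called in the same direction, 5 of them overlapping Ty frames, and 1 pair was called in opposite directions. Among the 13 were *MAG1* (1.48) with *DDI1* (1.22), both higher, and *SAM3* (-2.56) with *SAM4* (-1.65), the homocysteine methyltransferase gene, *HBT1* (-1.57) with *FMP45* (-1.89), *NIT1* (-1.86) with *YIL165C* (-1.82), and *HIS3* (-1.43) with *MRM1* (-0.84), all lower.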
